A study of Mus musculus with 2 samples.

Results

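The barcodes described here are cycling T lineage barcodes from the spleens of 7-day-old mice in which transcripts of the mitotic genes Ccnb1, Ccnb2, Cdc20, Cenpa and Nek2 outnumbered transcripts of replication histone genes. They were selected on their own measured counts, by gates on raw unique molecular identifiers (UMIs, each of which marks 1 captured transcript). A barcode, which stands for 1 droplet, needed at least 300 genes, at least 3000 UMIs and at most 5% mitochondrial UMIs. It also needed at least 3 UMIs over Cd3d, Cd3e, Cd3g, Trac and Trbc2, and at least 5 UMIs over Mki67, Top2a, Birc5 and Pclaf. The summed UMIs of the mitotic genes then had to exceed those of Hist1h1b, Hist1h2ap, Hist1h2ae, Hist1h3c and Hist1h2ab. These gates kept 413 of 14524 barcodes of the WT library and 296 of 18134 barcodes of the KO library, 709 of 32658 in all. They are called mitotic-sum barcodes below.

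Regulatory T cells (Tregs) are CD4+ T cells that express the transcription factor Foxp3 and restrain immune responses. Both groups are labelled C57BL/6J. The WT library came from Foxp3Cre mice, which carry a YFP-Cre fusion placed behind the Foxp3 coding sequence. The KO library came from Foxp3Cre Zfp335fl/fl mice, in which the same Cre deletes the floxed gene of the zinc finger protein Zfp335. Cre is therefore present in both groups and is driven from the Foxp3 locus. Live CD4+ YFP+ splenic cells were sorted and their RNA was sequenced cell by cell in droplets, 1 library for each genotype. The number of mice in each library is not given in the sources used here. Differences between genotypes and between libraries cannot be told apart, so no test between genotypes was run. All intervals are 95% intervals of counting error alone, except where an interval over the genes of a list is named.

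Cells in mitosis carry a characteristic set of transcripts. B-type cyclins switch on the kinase that drives entry into mitosis, Aurora and Polo-like kinases build the spindle, kinetochore proteins tie chromosomes to it, and Cdc20 and Ube2c direct the anaphase-promoting complex that ends it. Replication histones, in contrast, are transcribed while DNA is copied and their messages are destroyed when S phase ends. In Tregs, division accompanies the conversion of resting cells into effector Tregs, which carry receptors such as Cxcr3, a chemokine receptor for inflamed tissue, and Klrg1, an inhibitory lectin receptor of terminally differentiated lymphocytes. S100a4 and S100a6 encode small calcium-binding proteins that are abundant in effector T cells.

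The libraries held 64567991 UMIs in WT and 65480052 in KO. Mitotic-sum barcodes had a median of 11795 UMIs in WT (3443 to 50578) and 9462.5 in KO (3032 to 63316), with medians of 3053 and 2789.5 genes. The libraries shared 70 barcode sequences, among them 2 WT and 1 KO mitotic-sum barcodes, and no sequence was selected in both. Zfp335 (chr2:164891882-164911757, mm10, minus strand), the targeted gene, had 42 UMIs in the WT and 1 UMI in the KO mitotic-sum barcodes, or 7.51 and 0.281 UMIs per 1e6 UMIs (CPM), a KO to WT ratio of 0.0375 (0.000927 to 0.220). Which exons were deleted is not given in the sources used here, so whether the counted tags lie in the deleted stretch is not known.

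The gate split the cycling T barcodes at the line of equal sums, with barcodes close to it on either side, as shown in the plot of mitotic against histone sums. Of the cycling T barcodes, 1126 in WT and 1244 in KO had more histone than mitotic UMIs (histone-high barcodes below), and 45 and 61 had equal sums. The name histone-high is relative to the mitotic sum. Histone sums of that set began at 1 UMI, with lower quartiles of 12 in WT and 11 in KO. Those of mitotic-sum barcodes reached 44 and 39, so the ranges overlap. Just inside the gate, 65 WT and 40 KO mitotic-sum barcodes led by 1 or 2 UMIs, and just outside it 108 and 123 cycling barcodes trailed by 1 or 2. At the proliferation gate, 21 WT and 18 KO mitotic-sum barcodes had exactly 5 UMIs, and 28 and 41 T barcodes with a leading mitotic sum were left out at 4. At the T gate, 18 and 22 mitotic-sum barcodes had 3 to 9 UMIs. The median mitotic sum was 15 UMIs in both libraries and the median histone sum was 6 in WT and 4 in KO.

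**Figure D1:**
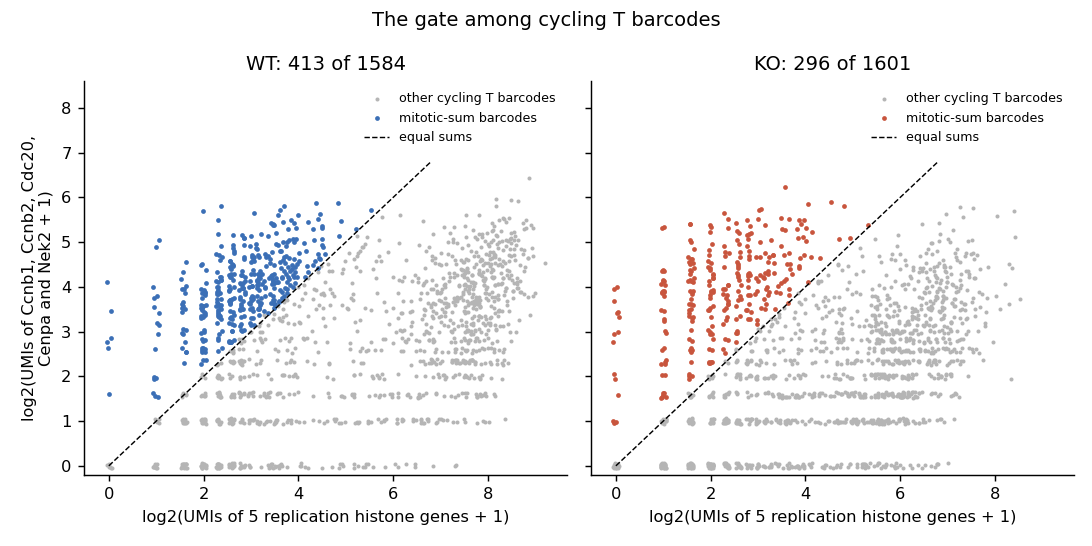
Each point is 1 cycling T barcode of the WT (left) or KO (right) library, placed by the log2 of its summed UMIs (plus 1) of 5 replication histone genes (x) and of Ccnb1, Ccnb2, Cdc20, Cenpa and Nek2 (y), with a small jitter. Coloured points are the 413 WT and 296 KO mitotic-sum barcodes above the dashed line of equal sums. Many histone-high barcodes lie in a cloud at the right, and others lie close to the line.

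The markers of the label were present, while a wider set of mitosis genes was only partly higher than in the other cycling barcodes. Against histone-high barcodes, the 5 gate genes and Cdkn3, a phosphatase that acts on the mitotic kinase Cdk1 and was not used by the gate, were all higher in both libraries, with a median fold of 2.18 in WT and 2.87 in KO. Cdkn3 alone was at 171 CPM against 80.3 CPM in WT and at 154 against 58.9 CPM in KO. Of 69 mitosis genes outside the gate with at least 100 UMIs, Cdkn3 among them, 24 in WT and 40 in KO were higher than in histone-high barcodes, with median folds of 0.823 and 1.05. All 69 were higher than in non-cycling T barcodes (at most 1 UMI over the proliferation genes), with median folds of 8.24 in WT and 9.48 in KO, although that set was itself defined by proliferation genes. Of 23 DNA replication genes, 0 were higher than in histone-high barcodes in either library, with median folds of 0.472 and 0.447. Against non-cycling T barcodes 22 of the 23 were higher in each library, with median folds of 2.62 in WT and 1.89 in KO. Histone-high barcodes also carried many mitosis genes. These folds describe the selection and are no test.

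Outside the gate genes, the transcripts that stood highest over histone-high barcodes in both libraries were few. Ranked by the lower of the folds of the libraries, the leading 15 held the gate genes Ccnb2, Cenpa and Cdc20 together with Cep89, a centriole protein (2.89-fold in WT and 4.72-fold in KO), Psrc1 (2.17 and 2.05) and Knstrn (1.91 and 2.42), which encode spindle proteins, and Cdkn3 (2.12 and 2.61). The others were Gm17745, Tmem71, Mtmr14, Rdm1, Serpinb6b, Miip, Lpar6 and Ube2h, with folds between 1.86 and 2.65 over both libraries.

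T lineage identity was in part set by the T gate, and T cell markers outside the gate were detected as well. All 9 T cell markers of the list were detected in both libraries, at a summed 7397 CPM in WT and 6259 CPM in KO. Among them, Cd3d, Cd3e, Cd3g, Trac and Trbc2 form the T gate itself, so their sum is no independent sign of identity. These gate genes made up 5080 CPM in WT and 4208 CPM in KO. The other markers, Trbc1, Cd2, Lck and Cd4, were not used by the gate. Cd4 was found in 69.7% of WT and 59.1% of KO mitotic-sum barcodes, and Cd8a or Cd8b1 in 6.05% and 9.46%. Foxp3 itself was found in 25.2% (21.1 to 29.7) of WT and 25.7% (20.8 to 31.0) of KO mitotic-sum barcodes. The immature thymocyte genes Rag1, Rag2 and Dntt were at 0 in both libraries, and Ptcra had 1 UMI, in WT. NK cell markers had 190 UMIs in WT and 162 in KO, and the top 5 barcodes held 67.4% and 95.1% of them. Gamma-delta T cell markers had 64 and 105 UMIs, with at most 9 and 47 in 1 barcode. Barcodes with these markers were kept in all values below.

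The low T gate also let in deep barcodes with transcripts of other lineages. At least 10 UMIs of erythroid, B lineage, macrophage, mast cell or megakaryocyte markers, or at least 50 UMIs of neutrophil granule markers, were present in 21 WT and 22 KO mitotic-sum barcodes, of which 15 and 13 had a T sum of 3 to 9. Summed globin transcripts stood at 6046 CPM in WT and 8022 CPM in KO with these barcodes and at 306 and 764 CPM without them. Neutrophil granule transcripts stood at 6646 and 3932 CPM with them and at 225 and 195 CPM without. Results were therefore also computed over the 392 WT and 274 KO mitotic-sum barcodes that remained. Scrublet marked 2.18% of WT and 5.41% of KO mitotic-sum barcodes as likely doublets.

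Promoters of mitosis genes are known to hold a short cell cycle homology element and CCAAT boxes, and the following stretches of RefSeq sequence (GRCm38.p6, the build of the count tables) are shown because these genes are markers of the label (Ccnb1, Ccnb2, Cdc20, Cenpa, Cdkn3) or were higher in the KO library (Ube2c, Cenpf, Plk1). Each runs from 120 bases before to 30 bases after the transcription start, 5′ to 3′ on the gene's strand, with TTTGAA and CCAAT, read on either strand, in capitals. They belong to Ccnb1 (chr13:100786457-100786606, minus), Ccnb2 (chr9:70421525-70421674, minus), Cdc20 (chr4:118437314-118437463, minus), Cenpa (chr5:30666766-30666915, plus), Cdkn3 (chr14:46760421-46760570, plus), Ube2c (chr2:164769809-164769958, plus), Cenpf (chr1:189688057-189688206, minus) and Plk1 (chr7:122159315-122159464, plus). The stretches of Ccnb1 and Plk1 hold CCAAT but not TTTGAA. That of Nek2, also a gate gene and marker, is not shown. Stretches of Aurka, with CCAAT but not TTTGAA, and of Hmmr, with both, were also drawn and are not shown.
Ccnb1: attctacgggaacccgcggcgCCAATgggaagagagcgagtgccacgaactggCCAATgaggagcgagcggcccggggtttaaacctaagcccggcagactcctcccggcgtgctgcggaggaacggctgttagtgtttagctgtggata
Ccnb2: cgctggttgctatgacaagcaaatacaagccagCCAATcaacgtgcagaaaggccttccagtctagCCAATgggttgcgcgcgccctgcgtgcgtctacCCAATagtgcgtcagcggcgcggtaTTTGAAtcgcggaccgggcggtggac
Cdc20: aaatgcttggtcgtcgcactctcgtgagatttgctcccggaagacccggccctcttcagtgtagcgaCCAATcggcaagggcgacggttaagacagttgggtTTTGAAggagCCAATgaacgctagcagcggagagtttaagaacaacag
Cenpa: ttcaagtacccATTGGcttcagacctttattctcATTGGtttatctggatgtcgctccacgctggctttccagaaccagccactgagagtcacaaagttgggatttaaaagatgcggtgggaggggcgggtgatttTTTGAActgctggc
Cdkn3: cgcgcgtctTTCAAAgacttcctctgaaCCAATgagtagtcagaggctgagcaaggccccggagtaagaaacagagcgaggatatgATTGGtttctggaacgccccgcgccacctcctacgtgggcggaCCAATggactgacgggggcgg
Ube2c: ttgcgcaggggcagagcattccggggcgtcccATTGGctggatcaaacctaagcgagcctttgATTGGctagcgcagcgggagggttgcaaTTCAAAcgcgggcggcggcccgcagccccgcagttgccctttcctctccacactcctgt
Cenpf: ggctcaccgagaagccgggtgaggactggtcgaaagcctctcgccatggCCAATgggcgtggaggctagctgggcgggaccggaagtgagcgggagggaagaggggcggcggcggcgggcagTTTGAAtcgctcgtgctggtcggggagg
Plk1: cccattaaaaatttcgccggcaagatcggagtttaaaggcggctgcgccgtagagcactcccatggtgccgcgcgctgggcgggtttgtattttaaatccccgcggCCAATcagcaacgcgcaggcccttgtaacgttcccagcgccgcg
TTTGAA on either strand was present in 65.2% of 66 promoter windows of the mitosis genes (60 of 73 genes had a window), against 17.9% of all 32851 windows, and CCAAT in 74.2% against 37.4%. Both were present in 53% of the mitosis windows and 6.95% of all windows. Each window ran from 250 bases before to 50 bases after a start. Among the 5 windows of the gate genes, Nek2 included, TTTGAA was present in 60% and CCAAT in 100%. Among 22 windows of DNA replication genes TTTGAA was present in 13.6% and CCAAT in 68.2%. Of 3 windows of the effector genes, 0 held TTTGAA and 33.3% held CCAAT. A match of these letters is a description of the window, and binding was not measured.

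Mitotic-sum barcodes made up a smaller share of the KO than of the WT T barcodes at the raw gates, but not after depth was equalised. They were 7.20% (6.54 to 7.90; 413 of 5737) of T barcodes in WT and 4.74% (4.23 to 5.30; 296 of 6245) in KO, a difference of -2.46 percentage points (-3.32 to -1.61). Among cycling T barcodes they were 26.1% (23.9 to 28.3) in WT and 18.5% (16.6 to 20.5) in KO, a difference of -7.58 points (-10.5 to -4.70). Gates on raw UMIs depend on depth, and KO barcodes were shallower, so each barcode was also thinned to 3000 UMIs before gating. Then 2.76% (153 of 5539) of WT and 2.65% (161 of 6065) of KO T barcodes were mitotic-sum, a difference of -0.108 points (-0.706 to 0.484). Of thinned cycling T barcodes the shares were 18.7% and 15.4%, a difference of -3.24 points (-6.72 to 0.185). Cycling T barcodes as a whole went from 27.6% in WT and 25.6% in KO at raw depth to 14.8% and 17.2% after thinning, so the direction of that difference turned. The floor of 3000 UMIs left out 1589 WT and 6738 KO barcodes that passed the T gate, and a share over all T barcodes was not obtained.

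The effector genes named for these barcodes were far lower in the KO library. Cxcr3 (chrX:101731535-101734269, minus strand) had 520 UMIs in WT and 40 in KO, or 93.0 CPM (85.2 to 101) and 11.3 CPM (8.04 to 15.3), a KO to WT ratio of 0.121 (0.0855 to 0.167). Klrg1 (chr6:122270596-122282882, minus) had 221 UMIs in WT and 3 in KO, or 39.5 and 0.844 CPM, a ratio of 0.0214 (0.00437 to 0.0632). S100a4 (chr3:90603771-90606045, plus) had 1712 UMIs in WT and 98 in KO, or 306 and 27.6 CPM, a ratio of 0.0901 (0.0727 to 0.110). S100a6 (chr3:90612882-90624181, plus) had 9046 and 438 UMIs, or 1618 and 123 CPM, a ratio of 0.0762 (0.0691 to 0.0839). All 4 intervals lay below 1. Without the barcodes that held markers of other lineages, the ratios were 0.130, 0.0227, 0.0733 and 0.0700. With the T gate raised to 10 UMIs the S100a4 ratio was 0.0533. These comparisons are a description, since the genes were chosen with their values known.

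The KO remnant of these genes sat in few barcodes. In WT, Cxcr3 was found in 163 of 413 mitotic-sum barcodes, with at most 14 UMIs in any one, and the 5 barcodes with most Cxcr3 held 10.6% of its UMIs. In KO it was found in 12 of 296, and the top 5 held 72.5% of its UMIs. For S100a4 the top 5 barcodes held 11% of UMIs in WT and 62.2% in KO, and for S100a6 5.47% and 43.2%. The 3 Klrg1 UMIs of KO lay in 3 different barcodes. Of the 163 WT barcodes with Cxcr3, 33 also held Klrg1 and 161 also held S100a6, whereas in KO none of the 12 with Cxcr3 held Klrg1 and 8 held S100a6.

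Shares of barcodes were compared after thinning each mitotic-sum barcode to 3000 UMIs, which none fell short of. Cxcr3 was then found in 20.1% (16.3 to 24.3) of WT and 2.03% (0.747 to 4.36) of KO mitotic-sum barcodes. Klrg1 was found in 9.20% (6.59 to 12.4) of WT and in 0 of 296 KO barcodes at this depth. Unthinned, 3 of the 296 KO barcodes held a Klrg1 UMI, a share of 1.01% (0.21 to 2.93). S100a4 was found in 38.3% (33.5 to 43.1) and 4.05% (2.11 to 6.97), and S100a6 in 76.5% (72.1 to 80.5) and 14.9% (11 to 19.4). At least 1 of the 4 genes was found in 340 of 413 WT barcodes (82.3%, 78.3 to 85.9) and in 52 of 296 KO barcodes (17.6%, 13.4 to 22.4), and at least 2 of them in 45.5% and 3.04%. Without thinning, the share with at least 1 gene was 96.4% in WT and 36.5% in KO.

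Erythroid barcodes below the T gate served as a measure of free RNA, since they should lack T cell receptors. They numbered 28 in WT and 17 in KO, with median depths of 8123.5 and 5221 UMIs. After thinning, Cxcr3 and Klrg1 were found in 0 of them in either library, S100a4 in 7.14% in WT and 0 in KO, and S100a6 in 17.9% in WT and 0 in KO. With so few barcodes, 0 allows shares of up to 10.7% in WT and 17.6% in KO. The WT mitotic-sum shares of S100a4 and S100a6 lay above the upper bounds of the erythroid intervals (23.5% and 36.9%), and that of Cxcr3 above the limit that 0 allows. The WT share of Klrg1 and all KO shares did not, so for these a background from free RNA could not be separated at this depth. For the other shares, the comparison holds only against this selected set.

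**Figure D2:**
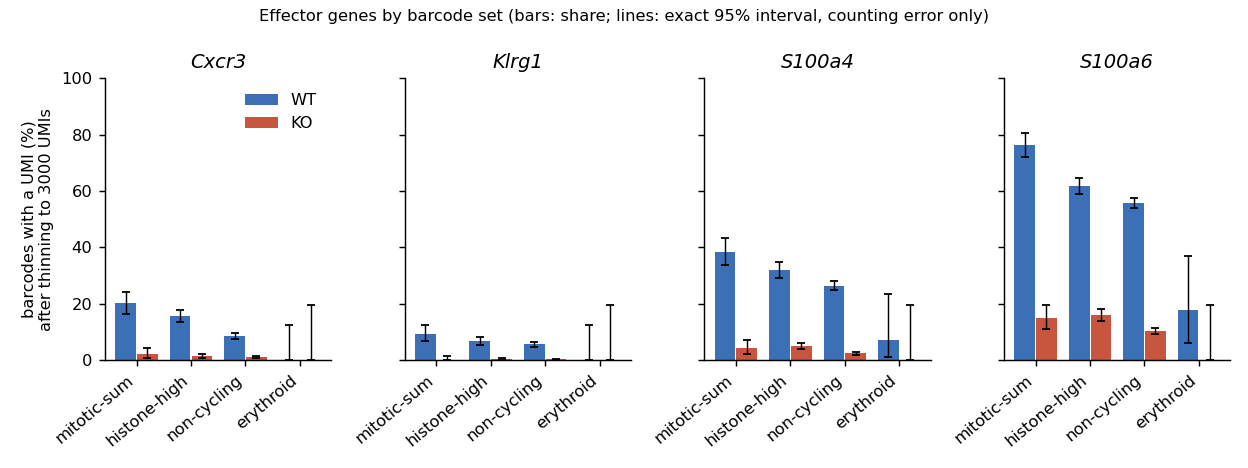
Bars give the percentage of barcodes with at least 1 UMI of Cxcr3, Klrg1, S100a4 or S100a6 after thinning to 3000 UMIs, in mitotic-sum, histone-high, non-cycling T and erythroid barcodes of WT (blue) and KO (red), and lines give exact 95% intervals. In every T set the WT bar stood above the KO bar, and S100a6 reached 76.5% in WT against 14.9% in KO among mitotic-sum barcodes.

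Low effector transcripts in KO were shared by the other T barcodes. The Cxcr3 ratio was 0.0660 in histone-high and 0.0784 in non-cycling T barcodes, and the S100a6 ratio 0.112 and 0.0838. Within the WT library, at least 1 effector gene was found after thinning in 82.3% of mitotic-sum, 67.7% of histone-high and 63.0% (61.2 to 64.8) of non-cycling T barcodes, so the interval for the mitotic-sum barcodes lay above the latter. Cxcr3 stood at 93.0, 75.1 and 46.4 CPM in these WT sets in turn, and S100a6 at 1618, 1096 and 1028 CPM. Klrg1 differed less, at 39.5, 29.8 and 35.2 CPM. S100a4 was highest in the non-cycling set, at 306, 294 and 379 CPM. Within KO the shares were 17.6%, 18.2% and 11.9%, and the intervals of the first 2 overlapped. Thinning equalises the depth but not the total RNA of a cell, and cycling barcodes held more UMIs.

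**Figure D3:**
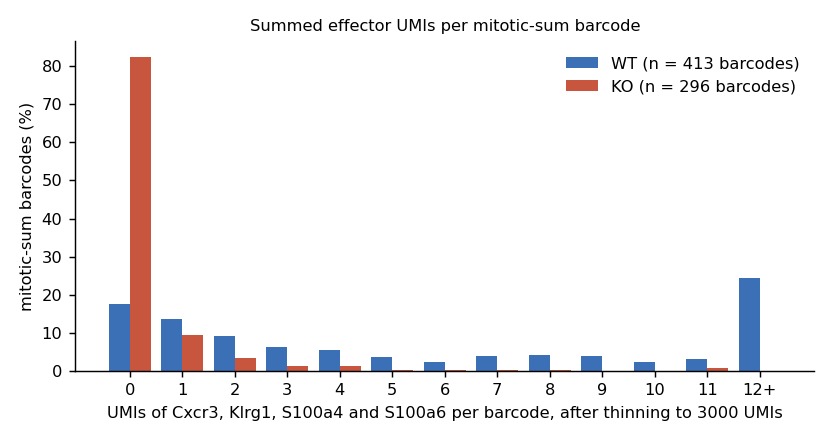
Bars give the percentage of mitotic-sum barcodes (413 WT, blue; 296 KO, red) with each number of summed Cxcr3, Klrg1, S100a4 and S100a6 UMIs after thinning to 3000 UMIs, with 12 or more pooled in the last class. Most KO barcodes (82.4%) were at 0, while WT barcodes spread over the whole axis.

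Mitotic-sum barcodes of WT were not uniform in these genes. After thinning, the summed effector count had a median of 4 UMIs and a maximum of 39 in WT, against 0 and 11 in KO. In WT, 17.7% of mitotic-sum barcodes had 0, 34.6% had 1 to 4 and 47.7% had 5 or more, and in KO the shares were 82.4%, 15.5% and 2.03%. In WT, Itgb1 was at 179 CPM in barcodes with 0 effector UMIs and at 501 CPM in those with 5 or more, and Icos, a costimulatory receptor, at 51.1 and 200 CPM. Ikzf2, the Treg transcription factor Helios, was at 447 and 594 CPM in the same classes. The resting gene Ccr7 ran the other way, at 47.7 and 18.3 CPM. Cenpf, a kinetochore protein, was at 400 and 281 CPM. These classes were cut from a count, and 1 UMI separates neighbouring classes. They also kept the barcodes that held markers of other lineages. After thinning, 335 of the 392 WT barcodes without such markers held an effector UMI, against 340 of all 413. Barcodes with other lineage markers thus lay mostly in the class with 0, and class values without them were not computed.

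KO barcodes with 0 effector UMIs also differed from WT barcodes with 0 in some genes but not in others. Barcodes with markers of other lineages were not left out of this class, and their part in the differences was not tested. Itgb1 was at 179 CPM (156 to 205) in the 73 WT and at 40.5 CPM (33.7 to 48.4) in the 244 KO mitotic-sum barcodes of that class. Igfbp4 was at 49.4 CPM (37.6 to 63.8) in WT and 211 CPM (195 to 228) in KO. Cdkn1a was at 2.51 CPM (0.518 to 7.34) in WT and 65.5 CPM (56.6 to 75.3) in KO. Intervals overlapped for Icos, at 51.1 CPM (39.1 to 65.6) in WT and 56.8 CPM (48.6 to 66.0) in KO. They also overlapped for Lgals1, at 1118 CPM (1058 to 1179) in WT and 1149 CPM (1111 to 1188) in KO. The class is set on thinned counts, and at full depth some of its barcodes held effector UMIs: the mitotic-sum barcodes with at least 1 effector UMI numbered 340 in WT and 52 in KO after thinning, and 398 and 108 at full depth.

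Across all genes, few passed 2-fold in mitotic-sum barcodes at a floor of 100 UMIs over both libraries. Of 6863 such genes, 138 (2.01%) were at least 2-fold higher in KO and 194 (2.83%) at least 2-fold lower. In direction alone, 3408 were higher and 3455 lower. The median log2 ratio was -0.00, which scaling to total UMIs tends to hold near 0. With a floor of 20 UMIs, 452 of 10236 genes were past 2-fold higher and 538 past 2-fold lower. The floor counts both libraries together, so a gene sparse in 1 library could reach it through the other. Among 28 other effector Treg genes, 17 reached 100 UMIs, of which 13 were past 2-fold lower and 0 past 2-fold higher, with a median log2 KO to WT ratio of -1.72. All 17 intervals lay below a ratio of 1. How many intervals lie on 1 side of that ratio was not computed over all genes. The list was composed with earlier results of these data known.

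Adhesion and cytoskeletal members were lower in KO. Itgb1, the integrin beta-1 chain, was at 392 CPM in WT and 49.2 CPM in KO, a ratio of 0.126 (0.107 to 0.147). The S100 family members S100a10 and S100a11 were at 2443 and 547 CPM and at 633 and 107 CPM, with ratios of 0.224 (0.214 to 0.235) and 0.169 (0.152 to 0.188). The S100a11 ratio was 0.110 without the barcodes that held other lineage markers. Lgals1, a galectin of activated T cells, was at 2874 and 1330 CPM (0.463, 0.448 to 0.478). Vim, the intermediate filament vimentin, was at 1279 and 923 CPM (0.722, 0.692 to 0.752). It did not pass 2-fold.

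Secreted effector molecules were lower too. Ccl5, a chemokine, had 334 UMIs in WT against 21 in KO, with a ratio of 0.0989 (0.0604 to 0.154). Gzmb, the cytotoxic protease granzyme B, went from 249 UMIs in WT to 9 in KO (ratio 0.0569, 0.0257 to 0.110). In histone-high barcodes Gzmb was not lower in KO, at 54.7 CPM in WT and 59.7 CPM in KO, while in non-cycling T barcodes it was at 27.3 and 4.49 CPM. The NK cell list (Ncr1, Klrb1c, Klre1, Gzma, Eomes) summed to 25.2 CPM in WT and 61.4 CPM in KO histone-high barcodes, and the top 5 KO barcodes held 88.6% of those UMIs. Whether these barcodes hold the Gzmb transcripts was not tested.

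Genes of Treg identity did not move together. Of 10 genes, all past 100 UMIs, 2 were past 2-fold higher in KO and 0 past 2-fold lower, with a median log2 ratio of 0.10. Il2ra, the high-affinity chain of the IL-2 receptor, was at 88.2 CPM in WT and 180 CPM in KO, a ratio of 2.04 (1.81 to 2.29). Gpr83, a receptor of Tregs, was at 27.9 and 68.1 CPM, a ratio of 2.44 (1.99 to 3.0). Ikzf2 was lower, at 558 and 318 CPM (0.569, 0.531 to 0.609), and so was Capg, an actin-capping protein, at 425 and 297 CPM (0.698, 0.649 to 0.751). Izumo1r, the folate receptor 4 of Tregs, was at 275 and 413 CPM (1.5, 1.40 to 1.62). For Tnfrsf4, encoding OX40, the ratio was 0.923 (0.853 to 0.999). Foxp3 was at 23.2 and 27.9 CPM, and the interval of its ratio (0.913 to 1.57) included 1.

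Genes of resting T cells were higher in KO. Of 13 genes, 12 reached 100 UMIs, 5 were past 2-fold higher and 0 past 2-fold lower, with a median log2 ratio of 0.76. Igfbp4, encoding an insulin-like growth factor binding protein of naive T cells, had 105 UMIs in WT and 763 in KO, a ratio of 11.4 (9.31 to 14.2). After thinning it was found in 5.57% of WT and 41.6% of KO mitotic-sum barcodes. Ly6c1 had 39 UMIs in WT and 138 in KO (5.57, 3.88 to 8.16), and reads shared with its close paralogues make its count uncertain. Ccr7, the lymph node homing receptor, was at 31.3 and 97.9 CPM (3.13, 2.60 to 3.77). Lef1, a transcription factor of naive T cells, was at 128 and 189 CPM (1.47, 1.33 to 1.64). Klf2, a transcription factor of quiescence, was at 403 and 454 CPM (1.13, 1.06 to 1.20). S1pr1, the receptor for exit from lymphoid organs, went the other way, at 132 and 92.0 CPM (0.699, 0.612 to 0.797). The same list had a median log2 ratio of 1.20 in histone-high and 0.38 in non-cycling T barcodes.

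**Figure D4:**
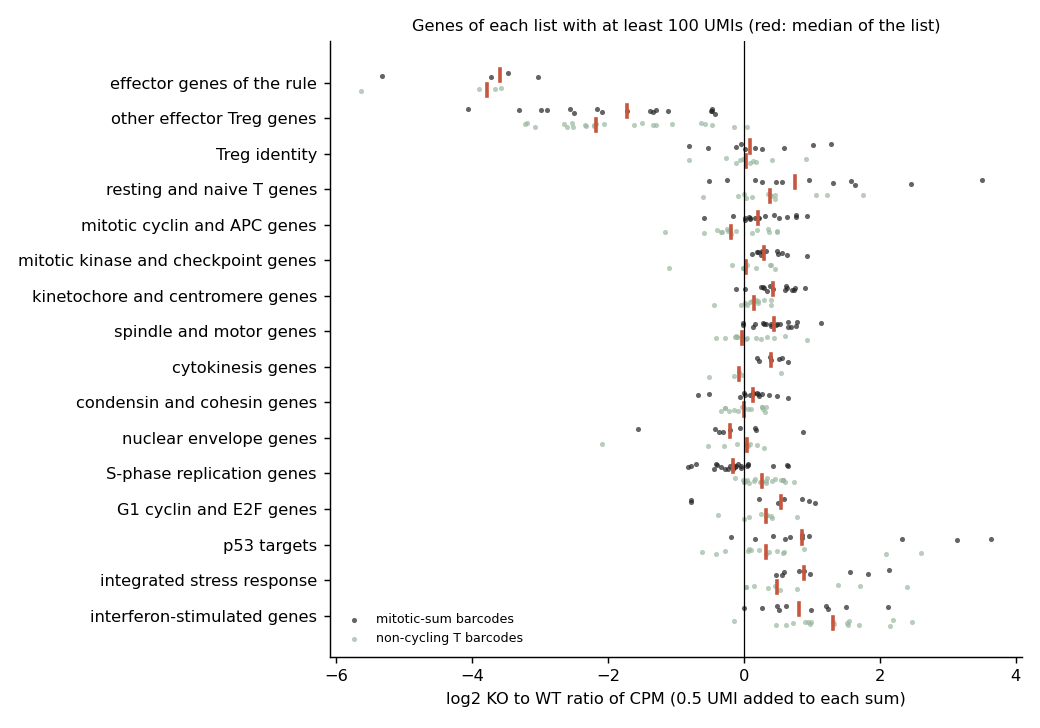
Each point is 1 gene with at least 100 UMIs, placed by its log2 KO to WT ratio of CPM with 0.5 UMI added to each sum, in mitotic-sum (black) and non-cycling T barcodes (green), by gene list, and red bars mark list medians. Effector lists lie left of 0 in both sets except for 1 gene of the non-cycling set. The median of other effector genes is -1.72 and that of p53 targets is 0.85 among mitotic-sum barcodes.

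Mitosis genes outside the gate were modestly higher in CPM in the KO mitotic-sum barcodes. Of 73 genes in 5 lists, 69 reached 100 UMIs. Of these, 64 were higher and 5 lower in KO, against 3408 higher and 3455 lower of all 6863 genes. Of the 69 intervals, 46 lay above a ratio of 1 and 1 below it, a share not computed over all genes. Only Kifc1 passed 2-fold. The median log2 ratio was 0.39, against 0.10 in histone-high and 0.03 in non-cycling T barcodes. With all barcodes thinned before gating the medians were 0.44, 0.02 and 0.03. Because these barcodes were chosen for high transcripts of other mitotic genes in cells of unequal depth, the difference cannot be told apart from where the gate fell in each library.

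Genes of the anaphase-promoting complex and of Cdk1 control were mostly higher. Ube2c, its ubiquitin-conjugating enzyme, was at 450 CPM in WT and 763 CPM in KO, a ratio of 1.70 (1.61 to 1.79), and Ube2s, the enzyme that extends the chains, at 456 and 653 CPM (1.43, 1.35 to 1.52). Cdk1, the mitotic kinase, was at 47.0 and 89.8 CPM (1.91, 1.62 to 2.26), and Bora, an activator of Aurora A and Plk1, at 26.5 and 45.0 CPM (1.70, 1.35 to 2.14). Cks1b and Cks2, which bind Cdk1, had ratios of 1.17 (1.08 to 1.26) and 1.15 (1.06 to 1.25). Of the 17 genes of this list, 15 were higher and 2 lower in KO, with Pttg1 among the latter at 77.8 and 51.8 CPM. Of the gate genes, Cdc20 was at 188 and 277 CPM and Ccnb1 at 144 and 203 CPM, while Ccnb2 was at 382 and 381 CPM. The gate genes selected these barcodes, so their values describe the selection. In histone-high barcodes Cdc20 was at 84.3 CPM in WT and 78.5 CPM in KO, and Ccnb1 at 82.0 and 64.7 CPM.

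Kinases, kinetochore proteins and motors gave the same picture. Plk1 (Polo-like kinase 1) had a ratio of 1.48 (1.27 to 1.74) and Ttk, a spindle checkpoint kinase, 1.92 (1.36 to 2.71). The chromosomal passenger proteins Incenp and Cdca8 had ratios of 1.56 (1.40 to 1.74) and 1.15 (1.07 to 1.23), and Bub3, a checkpoint protein, 1.40 (1.27 to 1.55). Cenpf was at 373 CPM in WT and 694 CPM in KO (1.86, 1.75 to 1.97), and the kinetochore motor Cenpe at 161 and 248 CPM (1.53, 1.40 to 1.68). Sgo1, which guards centromeric cohesion, had a ratio of 1.66 (1.39 to 1.99). The kinetochore subunit Spc24 was at 154 and 142 CPM, with an interval (0.823 to 1.03) that included 1.

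Among spindle genes, Kifc1, a minus-end motor, had 110 UMIs in WT and 154 in KO, a ratio of 2.20 (1.71 to 2.84). Nusap1, a microtubule bundling protein, was at 163 and 276 CPM (1.70, 1.55 to 1.86), and the motor Kif20b at 62.6 and 108 CPM (1.73, 1.49 to 2.00). The tubulins Tubb4b and Tuba1c had ratios of 1.12 (1.07 to 1.17) and 1.26 (1.16 to 1.36), and Arl6ip1 1.22 (1.17 to 1.28). In cytokinesis, Prc1, which bundles the midzone, was at 89.6 and 140 CPM (1.56, 1.38 to 1.77), the motor Kif23 at 56.5 and 83.6 CPM (1.48, 1.26 to 1.74), and Racgap1 at 121 and 138 CPM (1.14, 1.02 to 1.29).

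Chromosome structure genes were split. Of 16 condensin and cohesin genes, 13 were higher and 3 lower in KO, with a median log2 ratio of 0.14 and none past 2-fold. The condensin subunits Smc4 and Smc2, which act as a pair, differed in direction, Smc4 at 472 CPM in WT and 740 CPM in KO (1.57, 1.49 to 1.66) and Smc2 at 207 and 129 CPM (0.625, 0.560 to 0.697). Smc2 was also lower in KO histone-high and non-cycling T barcodes (0.706 and 0.863). Of 9 nuclear envelope genes past 100 UMIs, 6 were lower in KO, with a median log2 ratio of -0.21. Ankle2 (chr5:110231004-110256651, plus strand), which helps the envelope to reassemble after mitosis, had 104 UMIs in WT and 22 in KO, a ratio of 0.333 (0.200 to 0.531), and was the only one of these past 2-fold. Its ratio was 0.254 in histone-high and 0.235 in non-cycling T barcodes. Lmnb1 and Lbr, of the nuclear lamina and inner membrane, had ratios of 0.773 (0.715 to 0.836) and 0.746 (0.669 to 0.832).

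Replication genes were slightly lower. Of 23 genes, 17 were lower and 6 higher in KO, none past 2-fold, with a median log2 ratio of -0.15 that was -0.39 when barcodes were thinned before gating. Mcm4, a subunit of the replicative helicase, was at 83.7 and 47.3 CPM (0.565, 0.471 to 0.675), Tyms, thymidylate synthase, at 128 and 78.2 CPM (0.613, 0.531 to 0.705) and Cdc6, a licensing factor, at 21.8 and 12.7 CPM (0.580, 0.403 to 0.823). Slbp, which binds histone messages, had a ratio of 0.762 (0.668 to 0.868), and Mcm7 1.04 (0.921 to 1.17). The 5 histone genes of the gate had a median log2 ratio of -0.66 in mitotic-sum and -0.92 in histone-high barcodes. Histone genes are near-identical copies, so the split of their reads between members is uncertain.

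G1 regulators and the inhibitors of cyclin-dependent kinases differed more. Cdk6 and Cdk4, kinases of G1, were at 34.5 and 71.2 CPM (2.06, 1.70 to 2.50) and at 120 and 182 CPM (1.51, 1.36 to 1.69) in WT and KO. Cyclin D2 (Ccnd2) was at 267 and 483 CPM (1.81, 1.69 to 1.94) and Ccnd3 at 116 and 163 CPM (1.41, 1.26 to 1.58). Of 8 genes past 100 UMIs in this list, 6 were higher in KO and 1 passed 2-fold, Cdk6, which was at a ratio of 1.92 without the barcodes with other lineage markers. Cdkn1a, encoding p21, had 41 UMIs in WT and 231 in KO, or 7.33 and 65.0 CPM, a ratio of 8.87 (6.34 to 12.7). After thinning it was found in 1.69% (0.684 to 3.46) of WT and 12.2% (8.67 to 16.4) of KO mitotic-sum barcodes. Cdkn1b, encoding p27, had a ratio of 0.851 (0.734 to 0.985).

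Cdkn1a is a target of the transcription factor p53, and a list of such targets stood higher in KO. Of 17 genes, 11 reached 100 UMIs. Of these, 10 were higher in KO, 3 of them past 2-fold, with a median log2 ratio of 0.85. The 3 were Cdkn1a, Phlda3 and Bbc3, which reached the floor mainly through their KO UMIs. With a floor of 1 UMI the median was 0.68, with an interval over the genes of the list of -0.0582 to 1.46. With barcodes thinned before gating the median was 0.63, with such an interval of -0.281 to 1.00. Phlda3, an inhibitor of Akt signalling, had 17 UMIs in WT and 138 in KO, a ratio of 12.8 (7.69 to 22.6), the highest of all 6863 genes. It was found in 0.484% of WT and 11.1% of KO mitotic-sum barcodes after thinning. Bbc3, encoding the cell death protein Puma, had 27 and 87 UMIs (5.07, 3.26 to 8.12). Bax, another cell death gene, was at 190 and 342 CPM (1.80, 1.66 to 1.96), Ccng1 at 34.7 and 55.4 CPM (1.60, 1.30 to 1.96) and Fas, a death receptor, at 37.4 and 50.4 CPM (1.35, 1.10 to 1.65). For Rps27l the ratio was 1.12 (1.05 to 1.20). This list had median log2 ratios of 0.63 in histone-high and 0.32 in non-cycling T barcodes, and Phlda3 was higher there too (12.5-fold and 6.15-fold).

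Genes of the integrated stress response followed. All 9 genes past 100 UMIs were higher in KO, 3 past 2-fold, with a median log2 ratio of 0.89. Atf4, the transcription factor of this response, was at 99.1 and 195 CPM (1.97, 1.76 to 2.21), and Atf5 at 5.01 and 22.2 CPM (4.44, 2.85 to 7.10). Shmt2, of mitochondrial folate metabolism, was at 36.7 and 109 CPM (2.96, 2.49 to 3.53), Mthfd2 of the same pathway at 73.3 and 129 CPM (1.77, 1.54 to 2.02), and Asns, asparagine synthetase, at 20.9 and 74.3 CPM (3.55, 2.85 to 4.45). The Asns ratio was 6.73 without the barcodes that held other lineage markers. Phgdh of serine synthesis and Slc3a2, an amino acid transporter chain, had ratios of 1.51 (1.40 to 1.62) and 1.48 (1.31 to 1.67). The list median was 0.75 in histone-high and 0.50 in non-cycling T barcodes.

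Interferon-stimulated genes were also higher. Of 10 genes past 100 UMIs, 4 passed 2-fold higher and none lower, with a median log2 ratio of 0.81. Iigp1, a GTPase of cell-autonomous defence, was at 6.8 and 29.8 CPM (4.39, 3.0 to 6.54), Gbp2, a guanylate-binding protein, at 29.3 and 83.3 CPM (2.84, 2.34 to 3.46), and Bst2, the antiviral protein tetherin, at 58.7 and 138 CPM (2.36, 2.05 to 2.72). Zbp1, a nucleic acid sensor, had a ratio of 1.20 (1.05 to 1.37). Ifi27l2a, with the most UMIs of the list, had a ratio of 1.00 (0.961 to 1.05). In histone-high and non-cycling T barcodes the list medians were larger, 1.39 and 1.32.

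**Figure D5:**
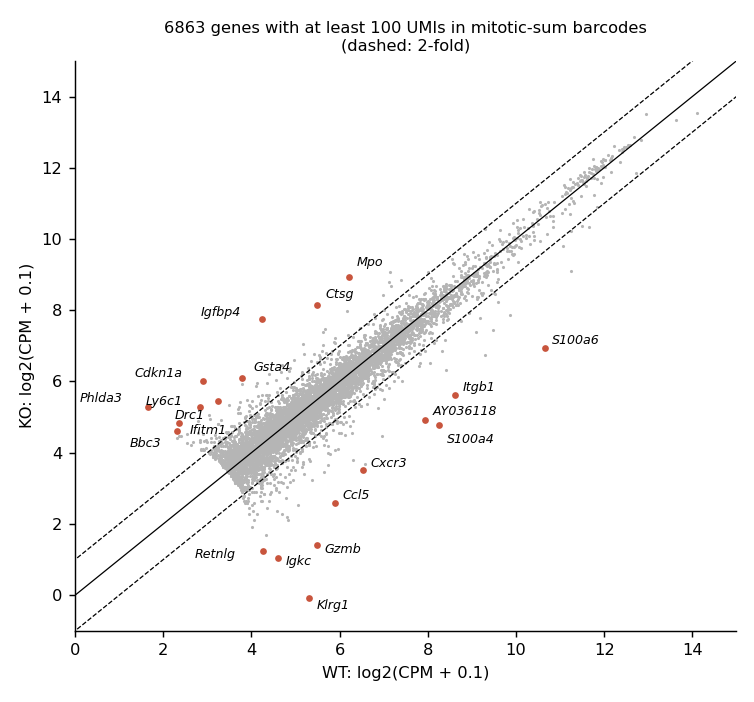
Each point is 1 of 6863 genes with at least 100 UMIs in mitotic-sum barcodes, placed by log2(CPM + 0.1) in WT (x) and KO (y), and dashed lines mark 2-fold. Red points name the 10 highest and 10 lowest KO to WT ratios, from Phlda3 (12.8) at the high end to Klrg1 (0.0214) at the low end.

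Genes of other lineages were among the 10 highest and 10 lowest. Mpo, a peroxidase, and Ctsg, a protease, both of the granules of neutrophil precursors, were 6.56-fold and 6.35-fold higher in KO, and without the barcodes that held other lineage markers Mpo was at 5.98 CPM in WT and 19.4 CPM in KO (3.24-fold) and Ctsg at 3.09 and 5.49 CPM (1.78-fold). At least 10 UMIs of Mpo, Elane, Prtn3 and Ctsg lay in 6 WT and 14 KO mitotic-sum barcodes. Retnlg, a neutrophil gene, had 107 UMIs in WT and 8 in KO, and 11 and 7 without those barcodes. Igkc, the immunoglobulin kappa constant region, had 136 and 7 UMIs, and 100 and 7 without them, and B lineage markers summed to 42.6 CPM in WT and 25.6 CPM in KO. AY036118, a gene model over ribosomal RNA sequence, was at 246 and 30.1 CPM, and at 248 and 30.4 CPM without them, and a list of 4 genes with such sequence summed to 7412 and 4099 CPM. The part of free RNA or of RNA quality in these differences was not tested.

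Of these highest and lowest genes, all but Ctsg and Retnlg stayed past 2-fold without those barcodes. Gsta4, a glutathione transferase, had 77 UMIs in WT and 244 in KO, a ratio of 4.99, and 14.3 and 75.9 CPM over the barcodes without other lineage markers. Drc1, a protein of motile cilia, had 52 and 155 UMIs, a ratio of 4.69, and was at 6.13 and 34.5 CPM in histone-high barcodes. Ifitm1, an interferon-induced membrane protein, had 28 and 101 UMIs, a ratio of 5.68, but in histone-high barcodes it was lower in KO, at 23.1 and 17.7 CPM, and likewise in non-cycling T barcodes, at 21.7 and 16.1 CPM.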

How the data were processed

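Splenic CD4+ YFP+ cells of 7-day-old mice were measured in 1 WT and 1 KO library. Per the labels, the authors made the deposited UMI counts per gene and barcode with Cell Ranger 5.0.1 on mm10, and the counts were used as deposited. Filters on genes, mitochondrial share and doublets had not been applied before deposit. Groups followed the genotype labels.

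Barcodes were selected by the UMI gates given above. UMIs were summed per gene and library over the selected barcodes and divided by their total (CPM). Ratios carry exact conditional binomial intervals, shares Clopper-Pearson intervals, differences of shares Newcombe intervals and CPM exact Poisson intervals. With 1 library per genotype no test was possible, and called means past 2-fold among genes with at least 100 UMIs. Fold rankings and log2 ratios had 0.5 UMI added to each sum. Thinning drew 3000 UMIs per barcode without replacement. Doublets were scored with Scrublet in scanpy 1.11.5, marking the top 5% of WT and 8% of KO barcodes, and were kept in the main values. Other software was numpy 2.4.6, scipy 1.17.1 and pandas 2.3.3. Scripts were tested on simulated counts.

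Named genes were the gate, marker and effector genes, Zfp335, the 4 genes with most UMIs and the 3 with the largest log2 ratio of each list, the 10 highest and 10 lowest ratios over all genes, and the 15 genes highest over histone-high barcodes; Foxp3 and the genes of the effector classes were named outside this rule. A few genes that the rule names are not reported here. The selected barcodes and gene lists were chosen with earlier results of these data known. Promoters came from RefSeq (GRCm38.p6) and gene positions from GENCODE on the same build. Alternatives covered the gates, depth, doublets, scaling and gene floor, and 1 of them, leaving out barcodes with markers of other lineages, was chosen after seeing the data.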

Additional observations from a re-analysis of the deposited data

Results flagged for a closer look

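Barcodes that met the mitotic-sum and proliferation gates but failed another gate were looked at separately. Over 5% mitochondrial UMIs were found in 18 such barcodes in WT and 24 in KO, where S100a6 stood at 844 CPM (696 to 1013) in WT and 326 CPM (240 to 432) in KO, and Cxcr3 at 126 and 13.6 CPM. Under 3000 UMIs lay 37 such barcodes in KO, against 2 in WT, with a median depth of 2172 UMIs, 0 UMIs of Cxcr3, Klrg1 and S100a4, and 5 UMIs of S100a6. Below the T gate lay 7 barcodes in WT and 5 in KO, which held Hbb-bs at 29272 and 24519 CPM. No test between genotypes was run on these barcodes.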

How the results depend on the processing

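Over 15 alternatives and 17 results, 196 recomputed values stayed within the interval or 1.5 times of the reported one, 20 moved and 0 reversed. For shares and ratios this was the counting interval. For list medians it was an interval of the median over the genes of the list. That interval was wide for some lists, as for p53 targets (0.167 to 3.13), so staying within it says little there. Thinning before gating gave differences of -0.108 points (of T) and -3.24 points (of cycling T), a Klrg1 ratio of 0, S100a4 and S100a6 ratios of 0.0542 and 0.0602, 109 genes past 2-fold lower, and list medians of 0.54 (integrated stress response) and -0.39 (replication). A mitotic lead of at least 5 UMIs gave share differences of -1.53 and -4.57 points. A T gate of 10 UMIs gave S100a4 and S100a6 ratios of 0.0533 and 0.0619, and a proliferation gate of 3 UMIs an S100a6 ratio of 0.0893. Averaging single-barcode CPM gave S100a4 and S100a6 ratios of 0.0686 and 0.0619 and a mitosis median of 0.59. Genes with at least 20 UMIs gave 452 higher and 538 lower calls, and at least 1 UMI 1923 and 2706, since more sparse genes enter. The cause of the other moves was not tested. The Cxcr3 ratio ranged from 0.0868 to 0.146. No paired analysis was possible because each genotype had 1 library and the labels give no replicate numbers. Depth limits shares in single barcodes: Klrg1 was found in 0 of 296 KO barcodes at 3000 UMIs and in 3 at full depth.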

Other observations

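A list of 5 metabolic genes that the study singled out, and which is therefore no independent evidence here, had a median log2 KO to WT ratio of -0.96 in mitotic-sum barcodes, with all 5 genes lower. Hadha, of mitochondrial fatty acid oxidation, was at 124 CPM in WT and 54.6 CPM in KO (0.441, 0.374 to 0.518), and Ndufa4, a respiratory chain protein, at 582 and 219 CPM (0.376, 0.347 to 0.407). The medians were -1.03 in histone-high and -0.83 in non-cycling T barcodes. Xist and the Y-linked gene Ddx3y were present in the T barcodes of both libraries, Xist at 211 CPM in WT and 543 CPM in KO and Ddx3y at 20.7 and 14.3 CPM.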
